A study of Mus musculus with 4 samples.

Results

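Selenoproteins and genes of the selenium machinery were examined in mouse blastocysts through 8 genes, out of 20714 gene symbols listed in both assays. The genes were picked by symbol, by a rule that uses no measured value, though with earlier results of these data known. *Gpx1*, *Gpx4*, *Txnrd1*, *Txnrd2*, *Dio3*, and *Sephs2* encode proteins with selenocysteine, and *Sephs1* and *Secisbp2* encode factors without it. The blastocysts were wild type and were not treated themselves. According to the protocol, they came from 4-week-old C57BL/6J females mated with PWK/PhJ males (the strain label reads C57BL/6N x PWK). The females had been injected with the hormones PMSG and hCG to induce ovulation. From the 8-cell stage on, embryos grew in KSOM medium until they were blastocysts, and the zona pellucida was removed. RNA-seq by Smart-seq2 measured the mRNA level in 2 libraries, and Ribo-seq measured ribosome-protected fragments (RPF) in 2 others. Each library pooled whole embryos, and the sources do not say whether replicates were separate pools, so p-values measure only the spread between these libraries. Levels are the deposited FPKM (fragments scaled to sequence length and library size), over transcripts for mRNA and over coding sequences for RPF.

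Selenocysteine is inserted at UGA, a codon that otherwise stops translation. Recoding depends on a stem-loop in the mRNA, the SECIS element, which is bound by the protein that *Secisbp2* encodes, and on a dedicated elongation factor and tRNA. The selenium donor for that tRNA, selenophosphate, is made by the product of *Sephs2*, which is itself a selenoprotein. Among the products, GPX1 and GPX4 reduce peroxides, GPX4 including those of membrane lipids, TXNRD1 and TXNRD2 reduce thioredoxin in the cytosol and in mitochondria, and DIO3 inactivates thyroid hormone.

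In each of the 6 selenoprotein genes, the annotation (GENCODE vM1 on NCBIM37, the assembly of mm9) marked 1 recoded UGA in a coding exon. The sequences around it are shown because its place in the coding sequence sets how much of each gene a ribosome reads before and after recoding. They are given as DNA, 5′ to 3′ on the coding strand, with up to 8 codons on each side and the recoded TGA in capitals. For *Sephs1*, the capitals mark the codon that aligned with the recoded codon of *Sephs2*.
Gpx1: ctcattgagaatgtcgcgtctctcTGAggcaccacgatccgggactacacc
Gpx4: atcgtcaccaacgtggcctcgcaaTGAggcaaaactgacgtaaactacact
Dio3: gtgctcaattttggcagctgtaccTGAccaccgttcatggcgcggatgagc
Sephs2: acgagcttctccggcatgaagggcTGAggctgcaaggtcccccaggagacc
Sephs1: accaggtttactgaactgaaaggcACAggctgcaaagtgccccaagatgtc
Txnrd1: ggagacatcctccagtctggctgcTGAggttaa
Txnrd2: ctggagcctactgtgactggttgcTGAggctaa
Both thioredoxin reductase sequences end with the normal stop codon, after a single glycine codon behind the UGA.

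The recoded codon lay early in some genes and at the very end of others. In *Sephs2* (chromosome 7, 134416075 to 134417433, minus strand) it was codon 63 of 452, at 134417245 to 134417247. In *Gpx1* (chromosome 9, 108241607 to 108242671, plus strand) it was codon 47 of 201, at 108241782 to 108241784. *Gpx4* (chromosome 10, 79509911 to 79519184, plus strand) had 2 annotated coding sequences, and the codon at 79517482 to 79517484 came after 50.4% of the longer one and after 36.4% of the shorter. These 3 genes therefore had a large part of their coding sequence behind the UGA.

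In *Dio3* (chromosome 12, 111517278 to 111519307, plus strand) the recoded codon was number 170 of 304 in the longer annotated form, at 111517949 to 111517951. In *Txnrd1* (chromosome 10, 82296696 to 82360469, plus strand) it was codon 498 of 499, at 82358782 to 82358784. In *Txnrd2* (chromosome 16, 18426510 to 18479166, plus strand) it was codon 523 of 524, at 18477865 to 18477867. Nearly all of the coding sequence of these forms of both reductases thus lay ahead of the UGA. Only 1 of 4 annotated coding transcripts of *Txnrd1* and 1 of 3 of *Txnrd2* had a marked UGA. For *Txnrd1* it had 1500 coding bases, while the longest annotated coding sequence had 1836 and no marked UGA. *Sephs1* (chromosome 2, 4802610 to 4831603, plus strand) had 392 codons, and *Secisbp2* (chromosome 13, 51747066 to 51779413, plus strand) had 858, with no recoded UGA in either. Over 391 aligned codons, *Sephs1* and *Sephs2* encoded the same residue at 74.4%, and codon 63 of *Sephs2* aligned with codon 29 of *Sephs1*, which is ACA.

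**Figure D1:**
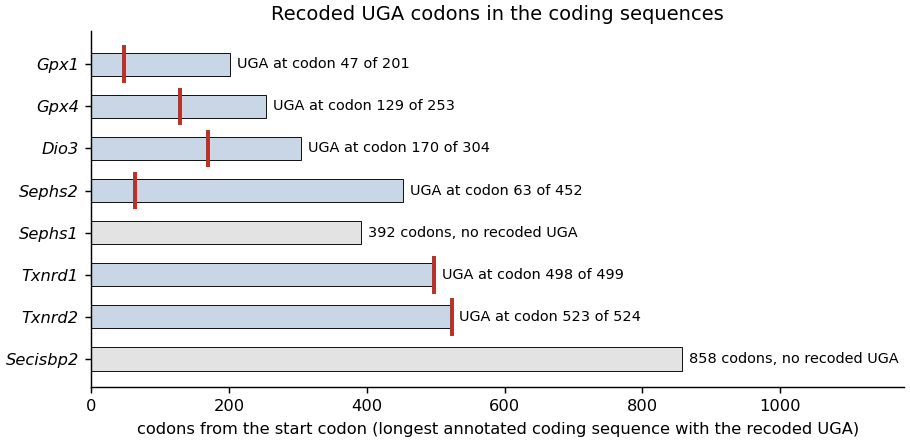
Coding sequences of the 8 genes, drawn to scale in codons from the start codon, with a line at the recoded UGA. The line is at codon 47 of 201 in *Gpx1* and at codon 498 of 499 in *Txnrd1*, and *Sephs1* and *Secisbp2* have none.

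Ribo-seq was the shallower assay. The steps between low FPKM values implied 5458505 and 5156071 fragments in the RNA-seq libraries and 532089 and 483209 in the Ribo-seq libraries. Footprint numbers below are FPKM converted with these totals and the longest annotated coding sequence, and floors and intervals cover counting error only. Replicates had a Spearman correlation across genes of 0.940 for mRNA and 0.898 for RPF. All 6 trophectoderm markers had at least 1 FPKM in every library, and 12 of 14 markers of oocytes, cumulus cells, blood, and stroma were at 0 in every library, with a highest value of 1.92 FPKM among the 14. Of 3 markers of the inner cell mass, 2 reached 1 FPKM in RNA-seq and 3 in Ribo-seq, with a summed level of 141 and 57.4 FPKM in mRNA and 681 and 810 FPKM in RPF. The summed level of 4 primitive endoderm markers was 12.5 and 9.34 FPKM in mRNA and 154 and 143 FPKM in RPF. The part of these marker levels in the results was not tested.

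The glutathione peroxidases were the most abundant of the 8 genes in both assays. The mRNA level of *Gpx4* was 560 and 631 FPKM in replicates 1 and 2, above 99.3% of all symbols by its mean. The mRNA level of *Gpx1* was 555 and 440 FPKM, above 99.2% of symbols. The *Gpx4* and *Gpx1* ranges did not overlap, but the gap between them was far smaller than the spread between *Gpx1* replicates. In bulk libraries such as these, a higher share of expressing cells and more RNA per cell cannot be told apart.

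At the RPF level, *Gpx4* had 380 and 392 FPKM and *Gpx1* had 358 and 492 FPKM, so the ranges overlapped. These values came from 77.2 and 96.3 footprints for *Gpx1*. For *Gpx4*, they came from 114 and 106 footprints with the longer coding sequence, or 79.6 and 74.6 with the shorter. Reads of *Gpx4* are less certain in origin, because 47.2% of the 28-base windows of its coding sequence occurred at 2 or more places in the genome (at most 3), against 0% for *Gpx1*.

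*Sephs2* and *Sephs1* stood far apart in mRNA FPKM and close together in RPF FPKM. The mRNA level of *Sephs2* was 53.8 and 45.0 FPKM, and that of *Sephs1*, whose product lacks selenocysteine, was 6.18 and 7.58 FPKM. The RPF level was 46.9 and 60.6 FPKM for *Sephs2* and 59.4 and 71.2 FPKM for *Sephs1*. The mRNA ranges were well separated, and the RPF ranges overlapped. About equal numbers of footprints lay behind the RPF levels, 28.9 and 33.9 for *Sephs2* and 30.9 and 33.7 for *Sephs1*. Converted with annotated transcript lengths, the mRNA gap was smaller in fragments, with 340.5 and 269 for *Sephs2* and 172.8 and 200.1 for *Sephs1*. FPKM divides by length, and the annotated transcripts used here had 1359 bases for *Sephs2* and 5319 for *Sephs1*. That *Sephs2* transcript was no longer than its coding sequence, so it held no untranslated part. With a longer transcript its fragment numbers would be higher, and the deposited FPKM used another annotation, from UCSC. The part of transcript length in the gap was not tested.

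*Txnrd1*, *Txnrd2*, and *Secisbp2* had low mRNA levels whose ranges overlapped. *Txnrd1* had 2.80 and 3.62 FPKM of mRNA and 18.7 and 27.0 FPKM of RPF. *Txnrd2* had 2.37 and 5.03 FPKM of mRNA and 10.2 and 9.59 FPKM of RPF. *Secisbp2* had 3.66 and 3.42 FPKM of mRNA and 4.28 and 8.67 FPKM of RPF. In RPF, the 3 genes followed each other in this order without overlap, but on few footprints. There were 16.3 and 21.3 footprints for *Txnrd1*, 7.43 and 6.37 for *Txnrd2*, and 5.41 and 9.96 for *Secisbp2*. With the shortest annotated coding sequences, they were 12.9 and 16.9 for *Txnrd1*, 4.7 and 4.0 for *Txnrd2*, and 2.38 and 4.38 for *Secisbp2*. The exact Poisson interval (95%) around the 7 footprints of *Txnrd2* in replicate 1 was 2.81 to 14.4.

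*Dio3* was listed at 0 in all 4 libraries. A floor of 3 fragments corresponds to 0.300 and 0.318 FPKM of mRNA and to 7.89 and 8.69 FPKM of RPF. *Dio3* was therefore not detectable at this depth, and a low RPF level like that of *Secisbp2* could have been missed.

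**Figure D2:**
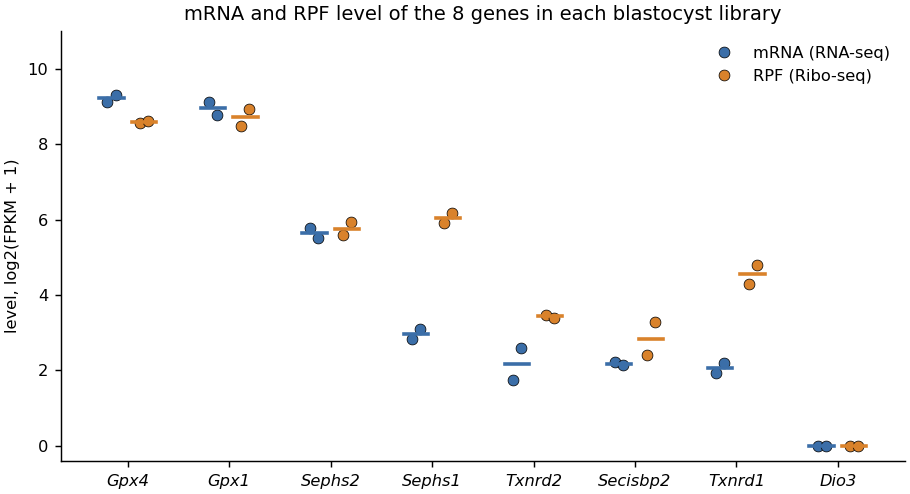
Levels of the 8 genes as log2(FPKM + 1), with a point for each library and a bar at the mean of the 2 replicates, for mRNA and RPF. *Gpx1* and *Gpx4* are highest in both assays, *Sephs1* has much lower mRNA than *Sephs2* but an overlapping RPF level, and *Dio3* is at 0.

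To ask whether RPF followed the mRNA level, the 2 assays were compared gene by gene with limma on log2(FPKM+1). The comparison covered 8327 genes with a mean of at least 1 FPKM in both assays, which included all of the 8 genes except *Dio3*. Each library was centred on its median, as RPF minus mRNA had a median of 1.26 (log2) before centring. A difference below is thus relative to other genes and is no absolute efficiency of translation. A gene was called at an adjusted p (Benjamini-Hochberg) under 0.05 with a log2 difference of at least 1. Of all genes tested, 6.65% were called with higher RPF and 5.31% with lower RPF. Of the 7 genes, 1 was called higher (*Sephs1*), 2 were called lower (*Gpx1* and *Gpx4*), and 4 were not called.

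RPF of both glutathione peroxidases was low relative to their mRNA. The log2 difference was -2.12 ± 0.25 (SE) for *Gpx4* (limma, adjusted p = 0.0271) and -1.74 ± 0.33 for *Gpx1* (limma, adjusted p = 0.0491), while the median over all tested genes was -0.24. *Gpx1* was close to the threshold, and with a pseudocount of 0.1 it was no longer called (limma, adjusted p = 0.0657). Both genes are short and abundant, and 494 tested genes shared a coding sequence of at most 800 bases and a mean mRNA level of at least 100 FPKM. Among these 494 genes the median difference was -0.28 and 11.9% were called lower, and 8.91% lay below *Gpx1* and 5.67% below *Gpx4*. When RPF was rescaled for footprints of 30 bases, the differences were -2.01 for *Gpx1* and -2.27 for *Gpx4*.

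*Sephs1* and *Sephs2* had differences of opposite sign. *Sephs1* was called higher, with a difference of 1.57 ± 0.28 (limma, adjusted p = 0.0455). *Sephs2* had -1.39 ± 0.30 and was not called (limma, adjusted p = 0.0586). With a pseudocount of 0.1, *Sephs1* was not called either (limma, adjusted p = 0.0626), and with a filter at 5 FPKM *Sephs2* was called (limma, adjusted p = 0.0263).

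The ratio of 2 genes within a library is free of the scaling between libraries, but not of the lengths that FPKM divides by. The log2 ratio of *Sephs1* to *Sephs2*, on FPKM+1, was -2.93 and -2.42 in RNA-seq and 0.33 and 0.23 in Ribo-seq. The 2 assays did not overlap, and the ratio differed by 2.96 between them. In a two-sided exact permutation test this gave p = 0.333, the smallest value that 2 against 2 libraries allow, and an adjusted p of 0.50 over 3 pairs.

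For the reductases, the log2 ratio of *Txnrd1* to *Txnrd2* was 0.17 and -0.39 in RNA-seq and 0.82 and 1.40 in Ribo-seq. These values did not overlap either, with a difference of 1.22 (exact permutation p = 0.333, adjusted p = 0.50). The log2 ratio of *Gpx4* to *Gpx1* was 0.01 and 0.52 in RNA-seq and 0.09 and -0.32 in Ribo-seq. It overlapped between assays (exact permutation p = 0.667, adjusted p = 0.667).

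The other 3 genes were not called in either direction. The difference was 0.99 ± 0.33 for *Txnrd1* (limma, adjusted p = 0.118), -0.23 ± 0.37 for *Txnrd2* (limma, adjusted p = 0.675), and -0.85 ± 0.41 for *Secisbp2* (limma, adjusted p = 0.217). That of *Txnrd2* turned to 0.18 without RNA-seq replicate 2. Leaving out RNA-seq replicate 1 or 2 gave -1.56 or -1.91 for *Gpx1*, -2.20 or -2.05 for *Gpx4*, and 1.45 or 1.69 for *Sephs1*. The 3 calls above were lost in these fits along with every other call. With 1 RNA-seq library left, these fits cannot decide whether a call depends on a particular library. Without centring, *Gpx1* and *Gpx4* kept their sign at -0.24 and -0.62 but were not called, *Sephs2*, *Txnrd2*, and *Secisbp2* turned to 0.11, 1.27, and 0.66, and 4113 genes were called higher and 65 lower in place of 554 and 442.

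The whole selenoprotein family of 24 genes was placed beside these values. In it, 4 genes were at 0 in every library (*Txnrd3*, *Dio2*, *Dio3*, and *Selenov*), and 18 were tested. Among the 18, 2 were called higher, 2 lower (*Gpx1* and *Gpx4*), and 14 were not called, and the median difference was -0.28. The 2 called higher were *Selenot*, which encodes a protein of the endoplasmic reticulum, and *Msrb1*, which encodes a methionine sulfoxide reductase.

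*Selenot* had 17.4 and 19.9 FPKM of mRNA and 243 and 225 FPKM of RPF, with a difference of 2.08 ± 0.24 (limma, adjusted p = 0.0271). *Msrb1* had 7.59 and 3.33 FPKM of mRNA and 88.4 and 139 FPKM of RPF, with a difference of 2.70 ± 0.49 (limma, adjusted p = 0.0475). The RPF of *Msrb1* came from only 7.34 and 10.5 footprints, against 50.1 and 42.2 for *Selenot*. *Msrb1* was no longer called with a pseudocount of 0.1 (limma, adjusted p = 0.0739) or with RPF rescaled for footprints of 30 bases, where its difference was 1.91 (limma, adjusted p = 0.0759). The lowest difference was that of *Selenow*, at -2.15 ± 0.70, which was not called (limma, adjusted p = 0.115) and rested on 3.90 and 11.7 footprints. It was -1.31 without Ribo-seq replicate 1 and -3.06 without Ribo-seq replicate 2, and was called in both (limma, adjusted p = 0.0401 and 0.00485). Without Ribo-seq replicate 1, *Gpx4* lay lower, at -2.11.

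In the list of 14 genes of selenium use, 12 were tested, 2 were called higher (*Sephs1* and *Ncl*), none was called lower, and the median difference was -0.33. An unadjusted limma p under 0.05 was found for 4 of the 12, and for 36.3% of all genes tested. *Ncl*, which encodes the nucleolar protein nucleolin, had 57.6 and 49.3 FPKM of mRNA and 834 and 865 FPKM of RPF, a difference of 2.47 ± 0.25 (limma, adjusted p = 0.0243). *Pstk*, the kinase that phosphorylates serine on the selenocysteine tRNA, had the lowest difference, -1.30 ± 0.30, and was not called (limma, adjusted p = 0.0649). *Lrp8*, which encodes a receptor for selenoprotein P, was at 0 in every library.

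Homologues that use cysteine gave no call among 3 tested of 7, and 0 of these 3 had an unadjusted limma p under 0.05. The lowest was *Msrb3*, at -0.87 ± 1.33 from 0 and 2.01 footprints, which turned to 0.95 without Ribo-seq replicate 1. The highest was *Gsr*, glutathione reductase, at -0.57 ± 0.45, which was -0.077 without Ribo-seq replicate 1 and -1.12 without Ribo-seq replicate 2, where it was called (limma, adjusted p = 0.0329). Of the other 4, *Gpx5* and *Gpx6* were at 0 in every library. Among 6 redox partners, 5 were tested and none was called by limma, and 2 had an unadjusted p under 0.05, near the share over all genes. *Txn1*, which encodes the thioredoxin that TXNRD1 reduces, had 626 and 589 FPKM of mRNA and 4186 and 3916 FPKM of RPF, a difference of 1.23 ± 0.24 (limma, adjusted p = 0.0508) that was 0.31 with RPF rescaled for footprints of 30 bases (limma, adjusted p = 0.399). The lowest of this list was *Gclc*, of glutathione synthesis, at -1.71 ± 0.72 (limma, adjusted p = 0.174). Its RPF rested on 1.99 and 0 footprints, under the floor of 3, and its difference was -0.93 without Ribo-seq replicate 2 and -0.25 with quantile normalization, so it was not resolved at this depth.

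**Figure D3:**
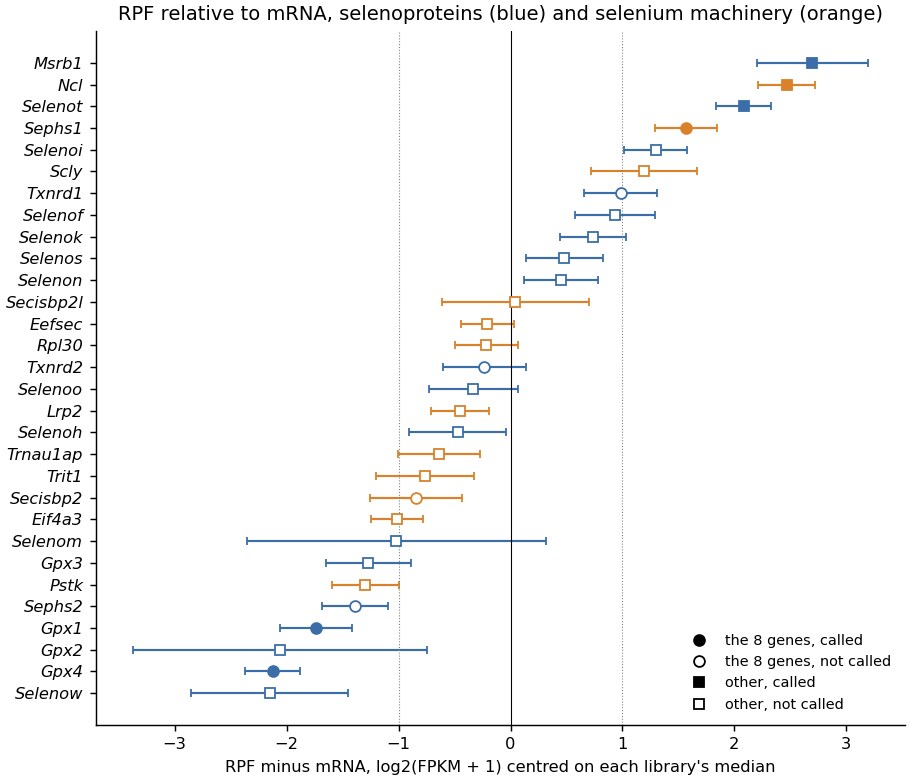
RPF minus mRNA (log2, centred) with its standard error for tested genes of the selenoprotein and selenium machinery lists, with called genes filled. *Gpx4* and *Gpx1* lie at -2.12 and -1.74, *Sephs2* at -1.39, and *Sephs1* at 1.57.

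The tested selenoproteins were then ordered by the place of the recoded UGA. This ordering was chosen after the values were seen and is a description with no test. In 9 genes the UGA lay within the leading 50% of at least 1 annotated coding sequence (*Gpx4* by its shorter form), and 8 of these had a difference below 0, with a median of -1.39. The exception was *Selenot*, with the UGA at codon 49 of 195. In the other 9 genes, 7 had a difference above 0, with a median of 0.74, and *Txnrd2* and *Selenoo* lay below 0. Of all tested genes, 58.3% had a difference below 0 and 41.7% above. These signs depend on the centring. Without it, *Sephs2* of the early genes and *Txnrd2* of the others turned to 0.11 and 1.27, while *Gpx1*, *Gpx4*, and *Selenow* stayed below 0. With RPF rescaled for footprints of 30 bases, 8 of the 9 early genes lay below 0 and 6 of the 9 others above. Some early genes, and *Selenoo* among the others, had no more than 3 footprints in a Ribo-seq library, and all of these lay below 0. Among genes with more than 3 footprints in both Ribo-seq libraries, 5 of 6 early genes lay below 0 and 7 of 8 others above.

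Across the 18 genes, the share of the coding sequence ahead of the UGA and the difference had a Spearman correlation of 0.585, and all points shared the same 4 libraries. It was 0.591 with RPF rescaled for footprints of 30 bases, and 0.512 over the 14 genes with more than 3 footprints in both Ribo-seq libraries. Other properties moved with the place of the UGA. Genes with an early UGA had more mRNA (a median of 2.48 against -0.75, log2 relative to the library median) and shorter coding sequences (a median of 588 against 1197 bases). Over the same genes, the Spearman correlation of the place was -0.496 with mRNA level and 0.423 with coding length. Transcript length, by which mRNA FPKM is scaled, ranged from 652 to 3157 bases in the early genes, with *Selenot* the longest. It ranged from 1090 to 6388 bases in the others. The parts of mRNA level, coding length, and transcript length in the pattern were not tested.

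**Figure D4:**
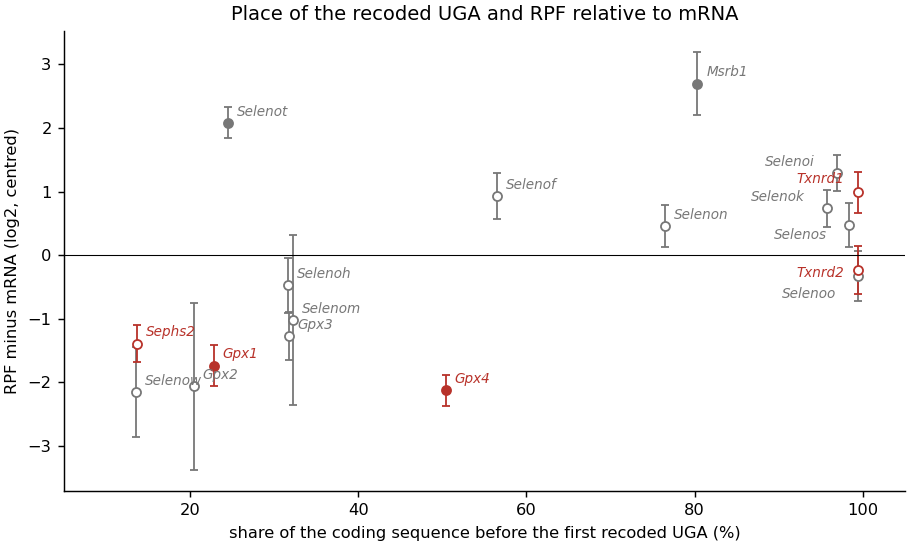
Share of the coding sequence before the recoded UGA (percent) against RPF minus mRNA (log2, centred, with standard error) for 18 tested selenoprotein genes, with members of the 8 genes in red, called genes filled, and *Gpx4* placed by its longer form. *Sephs2*, *Gpx1*, and *Gpx4* lie below 0, *Selenot* lies at 2.08 despite its early UGA, and *Txnrd1* lies at 0.99 with the UGA at the end.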

How the data were processed

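Mouse blastocysts were measured by RNA-seq and by Ribo-seq in 2 replicate libraries each. The authors deposited FPKM per gene. They trimmed reads with Trim Galore 0.4.2 (RNA-seq) or cutadapt 1.14 (Ribo-seq), removed rRNA reads from Ribo-seq with Bowtie2 2.2.2, mapped to the mm9 transcriptome with STAR 2.5.3a (up to 20 places per read), and ran Cufflinks 2.2.1 on transcripts or coding sequences. FPKM hold no counts, so fragment totals were inferred from steps of low values (67.2%, 64.4%, 86.7%, and 85.7% of them within 0.1 of a whole fragment, and 20% by chance), with default Cufflinks fragments of mean 200 and SD 80 bases.

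The 8 genes and the gene lists were chosen with earlier results of these data known. All 8 are described, and of the lists, genes called, at 0 in every library, or highest or lowest are named. *Selenoo*, *Selenok*, and *Gpx2* were named after their values were seen. limma 3.58.1 (R 4.3.3) was fitted to log2(FPKM+1) of all 8327 genes with a mean of at least 1 FPKM in both assays, with Benjamini-Hochberg adjustment over all of them. On simulated data with this design, the share of false calls was above the nominal level, so calls close to the threshold are uncertain. Alternatives were the pseudocount, the filter, the scaling, a replicate block, the effective length, sums of repeated symbols, and each library left out. GENCODE vM1 and the NCBIM37 genome gave sequences, coordinates, and coding lengths. Python 3.11.15 with scipy 1.17.1 was used.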

Additional observations from a re-analysis of the deposited data

How the results depend on the processing

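With 2 libraries per assay and few footprints for *Txnrd2*, *Secisbp2*, and *Msrb1*, small differences could not be resolved. The calls of *Gpx1*, *Gpx4*, and *Sephs1* held with quantile normalization, with RPF rescaled to footprints of 30 bases, with repeated symbols summed, and with a filter at 5 FPKM. The cause of the changes below was not tested, except that leaving out libraries or taking every symbol changes what is fitted by construction.

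With a pseudocount of 0.1, *Gpx1* (-1.84), *Sephs1* (1.63), and *Msrb1* (2.83) lost their calls, leaving 0 of the 8 genes higher and 1 lower, 1 higher and 1 lower of the selenoproteins, 1 higher of the selenium machinery, and 308 higher and 154 lower of all genes. With a filter at 5 FPKM, *Sephs2* was called lower (-1.44), as were 2 genes of the machinery and 751 of all genes, and 1 redox partner was called higher and 1 lower. With no filter, where the median RPF of all symbols was 0, *Gpx4* lost its call (-0.26), *Gpx1* (0.13), *Txnrd2* (1.63), *Sephs2* (0.48), *Secisbp2* (1.02), *Pstk* (0.57), *Gsr* (1.30), *Msrb3* (1.00), and *Gclc* (0.15) turned positive, and *Txnrd1* was called (2.85). Calls were then 3 higher and 0 lower of the 8 genes, 9 and 0 of the selenoproteins, 7 higher of the machinery, 3 higher of the redox partners, and 5330 and 158 of all genes.

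Without centring, *Gpx1* (-0.24) and *Gpx4* (-0.62) lost their calls, *Txnrd2* (1.27), *Sephs2* (0.11), *Secisbp2* (0.66), *Pstk* (0.20), *Gsr* (0.93), and *Msrb3* (0.63) turned positive, and *Txnrd1* was called (2.49). Calls were 2 higher and 0 lower of the 8 genes, 8 and 0 of the selenoproteins, 6 higher of the machinery, 3 higher of the redox partners, and 4113 and 65 of all genes. With quantile normalization, *Sephs2* was called (-1.56), *Txnrd2* (0.048) and *Msrb3* (0.51) turned positive, and 1 gene of the machinery was called lower. With rescaled RPF, *Msrb1* lost its call (1.91), *Selenow* was at -3.23, and 1 selenoprotein was called higher and 1 redox partner lower.

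The replicate numbers come from the labels, and no source says that they mark shared embryos. Deviations of same-numbered libraries had a correlation of 0.00994 across genes. This value cannot decide whether they share embryos, because counting error in shallow libraries can hide a shared deviation. With the replicate block, *Gpx1* (-1.74), *Gpx4* (-2.12), and *Sephs1* (1.57) were not called, and limma called 0 higher and 0 lower of the 8 genes, of the selenoproteins, of the machinery, and of all genes, with 2594 of 8327 genes at an unadjusted p under 0.05.

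Leaving out each library in turn gave -2.02 to -1.52 for *Gpx1*, -2.20 to -2.05 for *Gpx4*, 1.39 to 1.69 for *Sephs1*, -1.63 to -1.22 for *Sephs2*, 0.68 to 1.23 for *Txnrd1*, -0.64 to 0.18 for *Txnrd2*, -1.34 to -0.42 for *Secisbp2*, -3.06 to -1.31 for *Selenow*, -1.12 to -0.077 for *Gsr*, and -0.99 to 0.95 for *Msrb3*, with the lone library assumed to vary like the other assay. Calls ranged from 0 to 2 higher and 0 to 4 lower of the 8 genes, 0 to 4 and 0 to 5 of the selenoproteins, 0 to 3 and 0 to 3 of the machinery, 0 to 1 and 0 to 1 of the redox partners, 0 to 2 lower of the cysteine homologues, and 0 to 1187 and 0 to 1647 of all genes. For the 8 genes, the selenoproteins, and all genes, the counts of 0 came without RNA-seq replicate 1 or 2. Without Ribo-seq replicate 1, *Txnrd1* (1.23) and *Sephs2* (-1.22) were called, and without Ribo-seq replicate 2, *Sephs2* (-1.63) and *Secisbp2* (-1.34) were called.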
